A study of Mus musculus with 108 samples.

Results

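The genes described here are 51 genes of mitosis and DNA replication, followed across stages of inherited glaucoma in the mouse optic nerve head (ONH), where the axons of the retinal ganglion cells leave the eye, and in the retina. They were taken by symbol from a fixed list that spans 9 roles, from the licensing of replication origins to the final cut between daughter cells. A gene was read only from probe sets annotated to it alone, and from the one with the highest mean over the arrays of a tissue where it had several. By this rule 50 of the 51 genes were measured, out of 18194 genes in all. Ccnb1 had no probe set of its own and was not analysed here. Of the 50 genes, 35 had more than 1 such probe set, which left 65 further probe sets.

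The study profiled each tissue on Affymetrix Mouse Genome 430 2.0 arrays, of which 60 held ONH RNA and 48 retina RNA. The ONH set held 10 D2-Gpnmb+ control eyes, 10 preglaucoma eyes, 10 and 11 eyes of the sets no or early 1 and no or early 2, 9 moderate eyes and 10 severe eyes. The retina set held 10, 10, 10, 8 and 10 eyes of the same groups without preglaucoma. All mice were labelled female. They were 10.5 months old, except that the preglaucoma mice were 4.5 months old. DBA/2J mice carry a mutated Gpnmb gene and develop pigment dispersion, raised eye pressure and loss of ganglion cells, and D2-Gpnmb+ mice have a working Gpnmb on the same background and no glaucoma. The Tyrp1 b allele of DBA/2J is shared by the controls. Stages are those of the labels, which do not say how the sets no or early 1 and 2 differ, so both were averaged with equal weight where they are called no or early. The ONH punch also held some central retina, choroid and sclera. The 60 eyes came from 50 mice by the numbers in the labels, with both eyes of 10 mice among the ONH arrays and of 7 mice among the retina arrays, and eyes of a mouse were not treated as independent.

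A dividing cell first loads the Mcm2 to Mcm7 helicase on its origins, copies its DNA with the help of the sliding clamp Pcna and a supply of nucleotides from ribonucleotide reductase (Rrm1, Rrm2), and then enters mitosis under Cdk1 with its cyclins. Aurora and Polo kinases, the chromosomal passenger complex, kinetochores and spindle motors move the chromosomes, and Prc1, Ect2 and Cep55 act in the division of the cytoplasm. Most neurons and most glia of the adult retina and optic nerve do not divide, and transcripts of many of these genes are used as markers of cycling cells. Yet 20 of the 50 measured genes reached log2 5 on at least 8 retina arrays. The means over the retina arrays were 10.99 for Spc25, 10.14 for Pcna, 9.68 for Mcm4 and 8.38 for Ect2. A level alone is therefore not read as cycling cells here. Many of these genes are known targets of E2F factors or of the MuvB complexes, which bind the cell cycle genes homology region (CHR), often near CCAAT boxes bound by NF-Y.

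These elements were searched in the RefSeq promoter windows of the genes (mouse build GRCm38.p6, from 250 bases before to 50 bases after the annotated start). A window was found for 44 of the 51 genes. Aurkb, Ccna2, Foxm1, Kif20a, Mcm4, Pbk and Tpx2 had none in the table used. The letters searched, on both strands, were TTTGAA or TTTAAA for a CHR and CCAAT for a CCAAT box. An E2F core was TTCCCGC or TTGGCGC, and also TTGCCGC or TTCGCGC. A CHR was present in 33 windows (75.0%), against 25.5% of the windows of 17492 protein-coding genes. A CCAAT box was present in 34 windows (77.3%), against 39.2%, and 27 windows (61.4%) held both, against 10.3%. Of the 80 CCAAT boxes in these windows, 4 overlapped a CHR or an E2F core. Overlaps between CCAAT boxes were not counted. The letters CCAATTGG match on both strands and were counted as 2 boxes, as in Uhrf1 and Ube2c. An E2F core was present in 12 windows (27.3%), against 12.2%. Mcm6 had 5 E2F cores and Mcm3, Mcm5 and Mcm7 had 3 each. Among the 24 windows with at least 2 CCAAT boxes (54.5%, against 13.5%) were those of Top2a and Ube2c, with 6 each. A match is a description of the letters in the window and not a bound site.

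The windows of 7 genes are printed because these genes carry the results below: in each role they had the largest difference between moderate and no or early ONH among the genes of that role, where the table held their window. Each is given from 5′ to 3′ on the strand of the gene, with the motif matches in capitals. They lie at chr17:56303087-56303386 on the plus strand (Uhrf1), chr12:24708004-24708303 on the plus strand (Rrm2), chr10:69352863-69353162 on the minus strand (Cdk1), chr4:124936868-124937167 on the minus strand (Cdca8), chr19:38054734-38055033 on the plus strand (Cep55), chr2:164769679-164769978 on the plus strand (Ube2c) and chr11:99024140-99024439 on the minus strand (Top2a).
Uhrf1: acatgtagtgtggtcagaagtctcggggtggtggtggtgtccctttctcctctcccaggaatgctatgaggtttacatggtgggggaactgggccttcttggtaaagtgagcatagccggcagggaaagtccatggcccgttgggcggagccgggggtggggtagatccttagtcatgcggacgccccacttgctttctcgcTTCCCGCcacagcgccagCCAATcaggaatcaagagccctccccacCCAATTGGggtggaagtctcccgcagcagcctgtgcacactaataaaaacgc
Rrm2: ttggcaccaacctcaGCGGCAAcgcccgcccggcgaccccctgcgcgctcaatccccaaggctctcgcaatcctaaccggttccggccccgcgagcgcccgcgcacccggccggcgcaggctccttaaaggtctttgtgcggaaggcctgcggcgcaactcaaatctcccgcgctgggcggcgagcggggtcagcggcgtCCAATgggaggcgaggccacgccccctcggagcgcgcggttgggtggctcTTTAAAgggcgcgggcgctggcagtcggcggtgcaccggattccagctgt
Cdk1: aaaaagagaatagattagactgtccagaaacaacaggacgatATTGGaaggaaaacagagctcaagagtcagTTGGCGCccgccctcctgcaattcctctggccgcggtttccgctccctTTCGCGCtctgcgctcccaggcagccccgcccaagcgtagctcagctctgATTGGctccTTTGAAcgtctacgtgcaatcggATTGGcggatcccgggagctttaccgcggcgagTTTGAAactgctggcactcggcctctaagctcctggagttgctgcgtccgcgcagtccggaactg
Cdca8: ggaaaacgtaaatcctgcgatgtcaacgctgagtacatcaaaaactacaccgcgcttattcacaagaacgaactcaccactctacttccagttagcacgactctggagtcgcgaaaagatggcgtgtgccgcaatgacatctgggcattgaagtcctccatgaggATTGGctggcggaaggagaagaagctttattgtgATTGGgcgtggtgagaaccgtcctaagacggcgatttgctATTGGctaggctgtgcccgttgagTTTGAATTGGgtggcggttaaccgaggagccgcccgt
Cep55: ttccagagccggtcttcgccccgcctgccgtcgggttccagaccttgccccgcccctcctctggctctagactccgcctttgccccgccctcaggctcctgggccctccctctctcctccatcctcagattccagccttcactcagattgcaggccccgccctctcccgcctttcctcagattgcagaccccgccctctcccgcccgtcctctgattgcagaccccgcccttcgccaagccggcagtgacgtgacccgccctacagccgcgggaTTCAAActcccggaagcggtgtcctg
Ube2c: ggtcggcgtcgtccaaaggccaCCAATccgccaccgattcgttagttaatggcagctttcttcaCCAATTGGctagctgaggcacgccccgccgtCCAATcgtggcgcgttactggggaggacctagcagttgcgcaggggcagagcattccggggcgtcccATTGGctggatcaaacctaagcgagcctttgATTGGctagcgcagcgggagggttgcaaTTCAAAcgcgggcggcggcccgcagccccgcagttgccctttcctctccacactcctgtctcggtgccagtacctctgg
Top2a: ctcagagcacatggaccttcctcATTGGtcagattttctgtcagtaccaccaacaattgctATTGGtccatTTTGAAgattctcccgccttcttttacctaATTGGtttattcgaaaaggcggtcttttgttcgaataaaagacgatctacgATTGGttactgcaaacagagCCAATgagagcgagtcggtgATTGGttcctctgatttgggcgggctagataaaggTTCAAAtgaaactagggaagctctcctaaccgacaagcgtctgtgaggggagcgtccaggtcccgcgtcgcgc
Cdk1 held 3 CCAAT boxes, 2 CHR and 2 E2F cores, and Top2a held 6 CCAAT boxes and 2 CHR. Uhrf1 held 3 CCAAT boxes (2 of them in 1 CCAATTGG) and 1 E2F core with no CHR, and Cep55 held 1 CHR and neither of the other motifs.

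**Figure D1:**
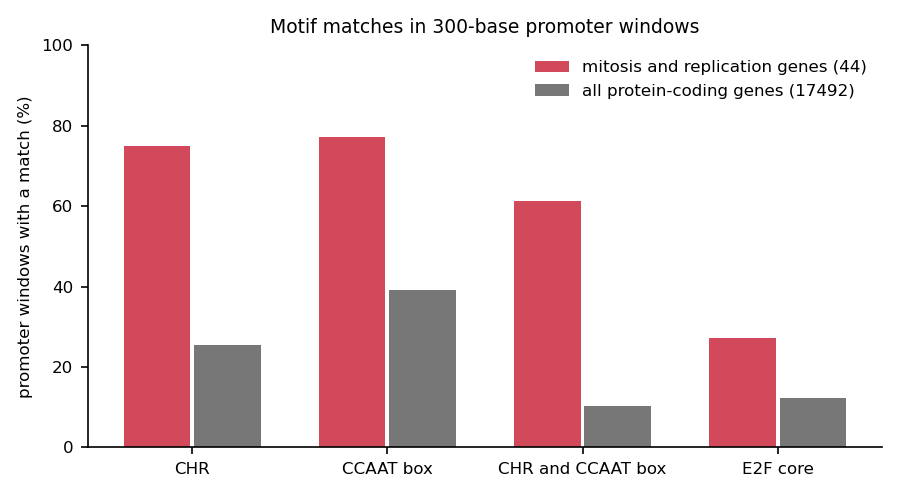
Percentage of promoter windows that hold a CHR, a CCAAT box, both, or an E2F core, for the 44 genes with a window and for 17492 protein-coding genes. Both a CHR and a CCAAT box were present in 61.4% of the mitosis and replication genes and in 10.3% of the protein-coding genes.

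Array medians lay between log2 4.88 and 5.23. The label check was Gpnmb, which averaged log2 6.65 to 6.93 in the 5 DBA/2J groups of the ONH and 9.23 ± 0.43 (SD, n = 10) in D2-Gpnmb+ controls, with no overlap of any DBA/2J array with the controls. Some arrays stood apart: 8 in the ONH, among them moderate replicates 8 and 10, and 3 in the retina, among them moderate replicate 2. Their median correlation with the other arrays of the tissue was under 0.98 (lowest 0.949 in the ONH and 0.976 in the retina), or they came from 1 severe mouse labelled female whose Xist was at most log2 6.64, against at least 10.8 on all other arrays. All control mice had numbers in 1 range of mouse numbers, which also held 2 moderate, 4 no or early and 3 severe eyes but no preglaucoma eye. The labels do not say what these numbers stand for. Results below are given with all arrays, and also without the arrays that stood apart or within that number range where this changes them.

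In the moderate ONH, genes of every role were higher than in D2-Gpnmb+ controls. A gene was called at an adjusted p under 0.05 in a limma fit to all 18194 genes. Of the 50 genes, 39 rose, 2 fell (Spc25 and Kif4) and 9 did not pass, where 7.16% of all genes rose and 8.08% fell. The median difference of the 50 genes was 0.83 on the log2 scale, against 0.02 over all genes, and 21 rose at least 2-fold. The 9 that did not pass were Mcm3, Mcm4, Tyms, Foxm1, Plk1, Melk, Kif22, Kif2c and Anln, with positive differences between 0.07 (Mcm4) and 0.57 (Anln). Of these, Mcm3 passed at 2 further probe sets (0.49 and 0.48, adjusted p of 0.0310 and 0.0351 over all probe sets). Kif22 and Kif2c passed at further probe sets given below. In bulk tissue, fewer cells of a type cannot be told apart from less RNA per cell, nor more cells from more RNA per cell. Only 20 of the 50 genes had a control mean of at least log2 5, close to the array medians, against 32 in the moderate ONH. No detection calls were used, so folds of the dimmer genes are those of RMA values that may lie near background in controls. Without the arrays that stood apart 35 genes rose, and with any 1 moderate, severe or control array left out between 34 and 42 rose. Within the number range of the controls, where only 2 moderate eyes remained against 10 control eyes, 11 rose and none fell.

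In moderate against no or early ONH, of the same strain and age, 36 genes rose, 1 fell (Kif4) and 13 did not pass, where 2.26% of all genes rose and 2.97% fell. The median difference was 0.67 on the log2 scale, against 0.01 over all genes, and 19 rose at least 2-fold. The 13 were Mcm3, Mcm4, Pcna, Rrm1, Tyms, Foxm1, Melk, Spc25, Kif11, Kif22, Kif2c, Hmmr and Kif23. Of these, Hmmr (1.59, adjusted p = 6.17e-08 over all probe sets), Kif11 (1.00, adjusted p = 0.000522), Kif22 (0.56, adjusted p = 0.0042) and Kif2c (0.46, adjusted p = 0.0103) passed at a further probe set with a lower mean. Spc25 also passed at its further probe set, but as lower in moderate (-0.72, adjusted p = 0.0263 over all probe sets). Moderate was the group with the highest mean for 45 of the 50 genes among the 6 ONH groups. It was also the group with the largest SD for 39 of them. The shares of all genes with the highest mean or the largest SD in moderate are not given here. The count of genes that rose was 28 without the arrays that stood apart. Within the number range of the controls, with 2 moderate and 4 no or early eyes, none passed, and Uhrf1 (-0.13) and Plk1 were among those with the opposite sign.

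Top2a, the topoisomerase that untangles replicated chromosomes, had log2 levels of 4.13, 7.0 and 7.60 (lowest, median and highest) in the 9 moderate ONH and of 3.59, 4.23 and 4.95 in the 10 control ONH. In 8 of the 9 moderate eyes it lay above every control eye and above every severe eye, and only replicate 5 lay among them. The means were 6.50 ± 1.08 in moderate and 4.29 ± 0.40 in control eyes (SD), a difference of 2.22 on the log2 scale (SE 0.29, 4.65-fold, adjusted p = 9.68e-08). It was higher by 1.54 than in no or early (SE 0.25, adjusted p = 2.24e-05), although no or early eyes reached 6.41 and 5 of the 9 moderate eyes lay above all of them. The other 2 probe sets of Top2a differed by 0.18 and 0.22 between moderate and control, with adjusted p of 0.0865 and 0.225 over all probe sets.

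Mki67, the antigen that marks cycling cells, spanned 4.70, 6.93 and 7.68 (lowest, median, highest) in the moderate ONH and 4.41, 5.00 and 5.75 in controls. The groups overlapped in 2 of the 9 moderate eyes. The difference was 1.56 (SE 0.25, 2.94-fold, adjusted p = 1.04e-05) against control and 1.04 (SE 0.22, 2.05-fold, adjusted p = 0.00133) against no or early. The second was 0.71 without the arrays that stood apart (adjusted p = 0.0602).

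**Figure D2:**
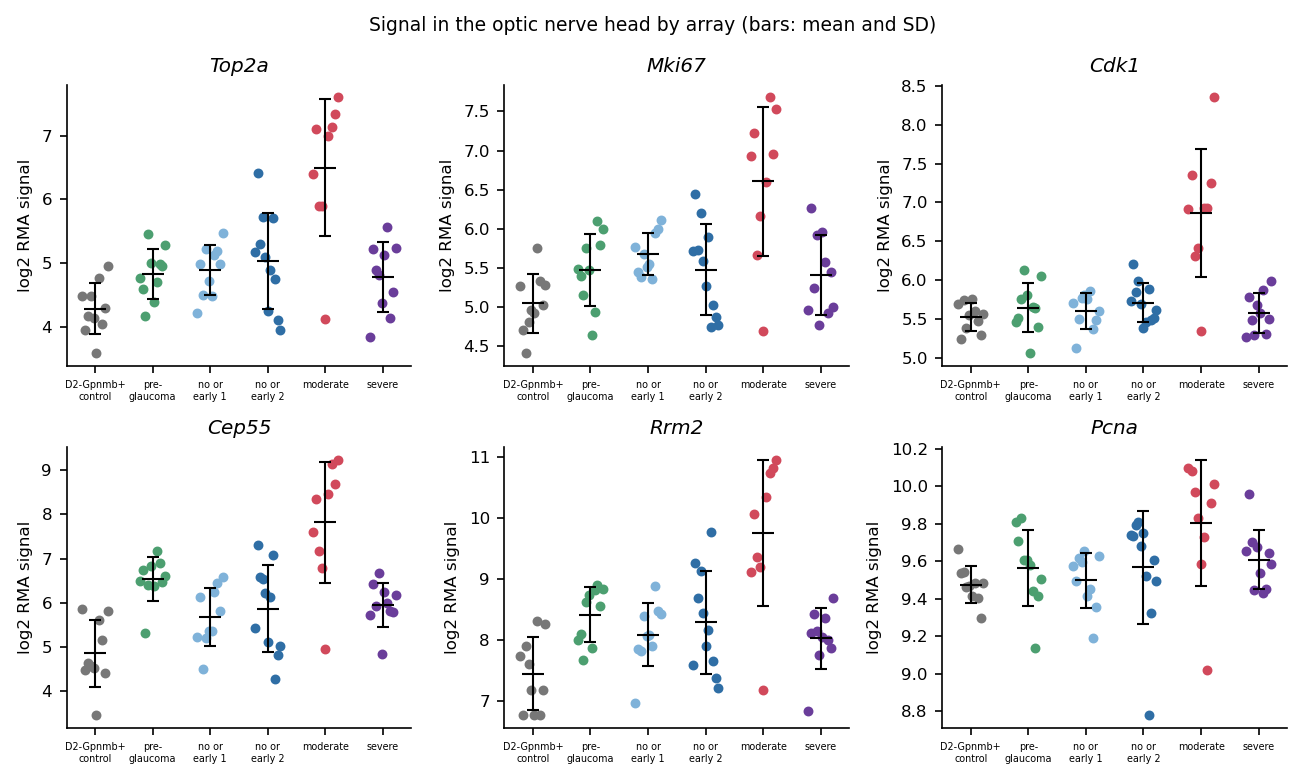
Log2 RMA level of Top2a, Mki67, Cdk1, Cep55, Rrm2 and Pcna on each ONH array by stage, with the mean and SD of each group. For Cdk1, 8 of the 9 moderate eyes lie above every eye of the other 5 groups, while for Pcna the moderate mean is 9.80 and the control mean 9.48.

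Among the genes of origin licensing and the replication fork, 6 of 8 rose in the moderate ONH against control and 5 of 8 against no or early. The largest was Uhrf1, which brings the maintenance DNA methyltransferase to newly copied DNA: its levels were 6.11, 7.85 and 9.29 in moderate and 5.62, 6.22 and 6.61 in control eyes, and 8 of 9 moderate eyes lay above all controls. It was 3.53-fold higher than in controls (1.82 on the log2 scale, SE 0.24, adjusted p = 1.68e-07). The helicase subunits moved less. Mcm6 was higher by 0.85 (SE 0.18), Mcm2 by 0.73 (SE 0.20), Mcm5 by 0.69 (SE 0.19) and Mcm7 by 0.46 (SE 0.15), and 5 of 9 moderate eyes lay above all controls for Mcm5. Mcm5 lost its call against control without the arrays that stood apart (0.39, adjusted p = 0.0804). Pcna had levels of 9.02, 9.91 and 10.10 in moderate and 9.30, 9.47 and 9.66 in control eyes, so that the moderate range enclosed the control range. It was 1.26-fold higher (0.33 on the log2 scale, SE 0.10, adjusted p = 0.0215), and this call was lost when moderate replicate 1, 2 or 10 was left out (adjusted p of 0.0514, 0.0545 and 0.0522). Pcna differed by 0.27 from no or early (SE 0.09, adjusted p = 0.0577).

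In the supply of nucleotides, 3 of 4 genes rose against control. Rrm2, the subunit of ribonucleotide reductase that is made in S phase, had levels of 7.18, 10.06 and 10.96 in moderate and 6.77, 7.39 and 8.30 in control eyes. All moderate eyes except replicate 5 lay above every control and every severe eye. Rrm2 was 4.97-fold higher than in controls (2.31, SE 0.33, adjusted p = 6.68e-07) and 2.98-fold higher than in no or early (1.58, SE 0.28, adjusted p = 0.000141). Tk1, the thymidine kinase of the salvage pathway, was 3.80-fold higher than in controls (1.93, SE 0.27, adjusted p = 4.81e-07), at 4.31, 6.16 and 7.43 in moderate and 3.47, 3.98 and 4.86 in control eyes. Rrm1, the other reductase subunit, was higher by 0.50 (SE 0.12, adjusted p = 0.00136). Tyms, thymidylate synthase, did not pass at 0.25 (SE 0.10, adjusted p = 0.0817).

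Cdk1, the kinase that drives entry into mitosis, set 8 of the 9 moderate eyes apart from every other ONH. Its levels were 5.35, 6.93 and 8.35 in the moderate ONH and 5.25, 5.56 and 5.77 in controls, and no preglaucoma, no or early or severe eye was above 6.22. Only moderate replicate 5 lay within the range of the other groups. Cdk1 was 2.52-fold higher than in controls (1.34, SE 0.18, adjusted p = 1.68e-07) and 2.31-fold higher than in no or early (1.21, SE 0.15, adjusted p = 2.1e-07). Of its partners, Ccnb2 (cyclin B2) was higher by 1.21 (SE 0.17) and Ccna2 (cyclin A2) by 1.00 (SE 0.16) against control. Foxm1, a transcription factor of G2 and mitosis genes, did not pass at 0.23 (SE 0.11, adjusted p = 0.17). Foxm1 had 4 probe sets, and none of them passed.

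The mitotic kinases and checkpoint genes rose in 6 of 8 cases against control and in 7 of 8 against no or early. Pbk, a mitotic kinase, had levels of 3.28, 6.25 and 7.33 in moderate and 2.80, 3.31 and 3.63 in control eyes, with 8 of 9 moderate eyes above all controls. It was 6.02-fold higher than in controls (2.59, SE 0.26, adjusted p = 7.46e-11). The checkpoint kinase Bub1 was 3.29-fold higher (1.72, SE 0.21, adjusted p = 2.9e-08). Its levels were 3.11, 4.73 and 5.96 in moderate and 2.57, 2.79 and 3.12 in control eyes. The control levels of both genes are low on the RMA scale and were not tested against background, so their folds are folds of RMA values only. Plk1, the Polo kinase, did not pass against control (0.24, SE 0.10, adjusted p = 0.0917) and rose by 0.29 against no or early (SE 0.08, adjusted p = 0.0267), but was at -0.24 within the number range of the controls.

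Of the 7 genes of the chromosomal passenger complex and the kinetochore, 6 rose and Spc25 fell against control. Birc5 (survivin) was higher by 2.18 (SE 0.33), Nuf2 of the NDC80 complex by 1.86 (SE 0.25) and Cdca8 (borealin) by 1.78 (SE 0.27). For Nuf2, the levels were 3.28, 5.10 and 6.39 in moderate and 2.47, 3.20 and 3.76 in control eyes, and 8 of 9 moderate eyes lay above all controls. Ndc80 itself, the partner of Nuf2, rose by 0.33 (SE 0.11, adjusted p = 0.0279) and was at -0.052 within the number range of the controls.

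Of the 7 genes grouped as spindle proteins and chromosome motors, 4 rose, Kif4 fell and 2 did not pass against control. The 4 were Tpx2, Nusap1 and Hmmr, which are not motors, and the motor Kif11. The spindle assembly factors Tpx2 and Nusap1 rose 4.81-fold and 4.57-fold against control (2.26, SE 0.34, and 2.19, SE 0.30). Tpx2 had levels of 4.93, 7.95 and 8.96 in moderate and 4.99, 5.58 and 6.04 in control eyes, so that moderate replicate 5 lay below every control eye. Kif11, the motor that pushes spindle poles apart, rose by 0.43 (SE 0.14) and Hmmr, a spindle protein, by 0.37 (SE 0.11). Kif22 and Kif2c did not pass. In this role too the result depended on the probe set read. Hmmr differed by 1.81 (SE 0.21, adjusted p = 1.28e-08 over all probe sets) and Kif11 by 1.25 (SE 0.22, adjusted p = 6.15e-05) at the further probe set with the largest difference. Further probe sets of Kif22 passed at 0.62 and 0.46 (adjusted p of 0.00122 and 0.0303), and one of Kif2c at 0.59 (adjusted p = 0.00127).

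In cytokinesis, 6 of 7 genes rose against control and 6 of 7 against no or early. Cep55, the midbody protein that recruits the abscission machinery, showed the largest rise of the 50 genes in both comparisons. Its levels were 4.96, 8.36 and 9.25 in moderate and 3.45, 4.60 and 5.85 in control eyes, and 8 of 9 moderate eyes lay above every control and every severe eye. It was 7.80-fold higher than in controls (2.96, SE 0.38, adjusted p = 7.95e-08) and 4.16-fold higher than in no or early (2.05, SE 0.33, adjusted p = 2.06e-05). Prc1, which bundles microtubules between the separating chromosomes, was 5.08-fold higher than in controls (2.35, SE 0.29, adjusted p = 2.95e-08). For Prc1, as for Cdk1, 8 of the 9 moderate eyes lay above all no or early eyes, which no other of the 50 genes showed.

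All 3 genes grouped with the anaphase ubiquitin ligase rose in both comparisons, as did both genes of chromosome structure. Ube2c, the ubiquitin-conjugating enzyme of this ligase, had levels of 4.73, 6.81 and 7.74 in moderate and 4.14, 4.66 and 5.57 in control eyes, with 8 of 9 moderate eyes above all controls. It was 3.29-fold higher than in controls (1.72, SE 0.26, adjusted p = 2.49e-06). Cdca3 was higher by 1.45 (SE 0.19) and Cdc20, an activator of the ligase, by 0.85 (SE 0.15).

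**Figure D3:**
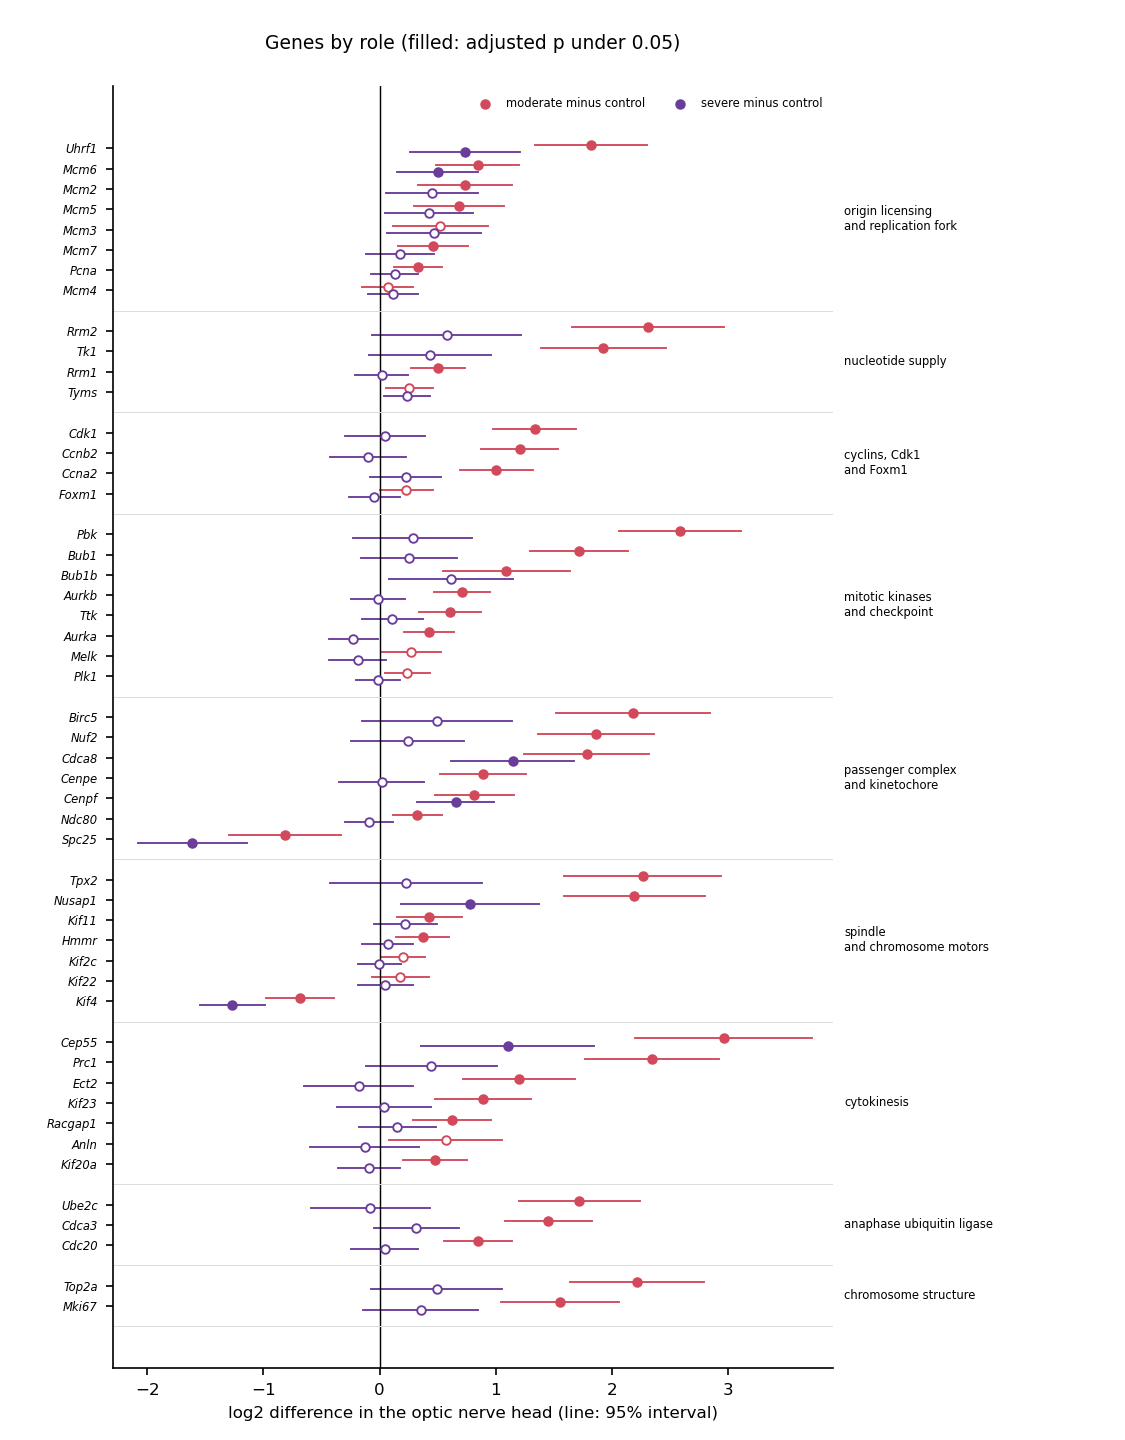
Log2 difference from D2-Gpnmb+ control of the 50 genes in the moderate ONH and the severe ONH, with 95% intervals, grouped by role; filled points have an adjusted p under 0.05. In the moderate ONH 39 points are filled on the right of 0 and 2 on the left, and in the severe ONH 6 and 2.

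The 9 moderate eyes, from 9 mice, differed widely among themselves. Counted per eye, the number of the 50 genes above the highest control eye was 6, 12 and 17 in preglaucoma ONH (lowest, median and highest), 4, 10 and 15 in no or early 1, and 1, 14 and 30 in no or early 2. It was 5, 37 and 46 in moderate and 3, 12.5 and 20 in severe ONH. Moderate replicate 5 was the eye with 5 genes, and it held the lowest value of the moderate eyes for 35 of the 50 genes. Replicate 10 held the highest value for 24 genes and replicate 8 for 15, and both were among the arrays that stood apart. For 17 genes, at least 8 of the 9 moderate eyes lay above all controls. Neither this count nor the counts per eye are given over all 18194 genes. They therefore do not show what is particular to the 50 genes.

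**Figure D4:**
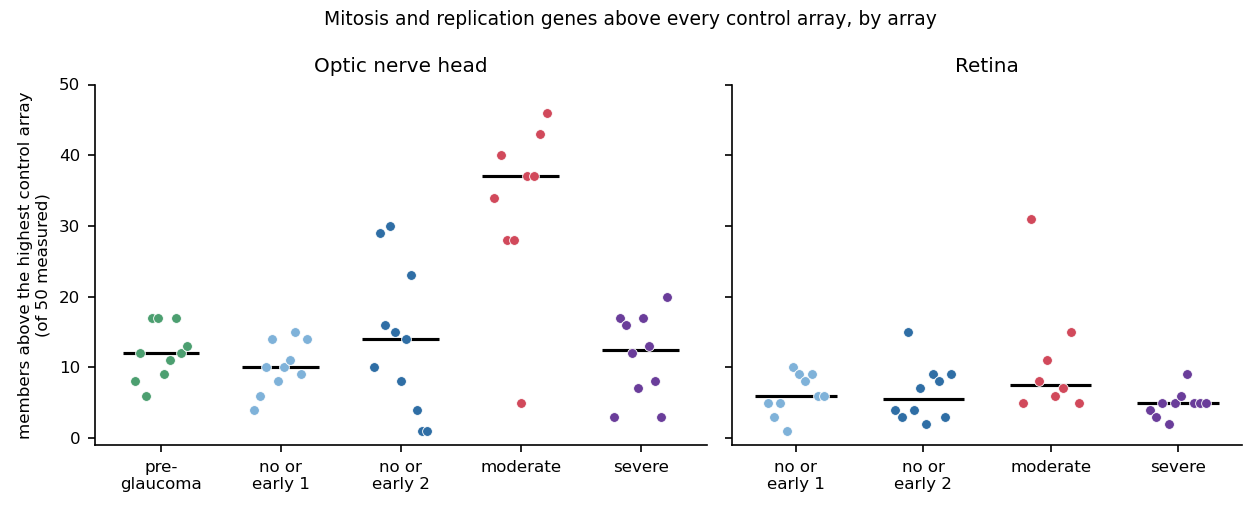
Number of the 50 genes above the highest D2-Gpnmb+ control array of the tissue, per array and stage, ONH on the left and retina on the right; the line is the group median. The median is 37 in the moderate ONH and 7.5 in the moderate retina, and 1 moderate retina reaches 31. The same counts over all genes are not given here.

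In the severe ONH most of these transcripts were lower than in the moderate ONH. Against moderate, 31 of the 50 genes fell, none rose and 19 did not pass, where 3.58% of all genes fell and 3.70% rose, 7.28% in all. The median difference fell by 0.67 on the log2 scale, and 18 genes were lower by at least 2-fold. Pbk fell by 2.30 (SE 0.26, adjusted p = 2.22e-09), Tpx2 by 2.04 (SE 0.33), Prc1 by 1.90 (SE 0.29), Cep55 by 1.86 (SE 0.38), Ube2c by 1.8 (SE 0.26) and Rrm2 by 1.74 (SE 0.32). Top2a fell by 1.72 (SE 0.28), Cdk1 by 1.29 (SE 0.18) and Mki67 by 1.20 (SE 0.25). Pcna did not pass (-0.20, SE 0.10, adjusted p = 0.246). In origin licensing and the fork only Uhrf1 of 8 genes passed, by -1.09 (SE 0.24), and none of the Mcm genes did at the probe set used. Further probe sets of Mcm2 (-0.72, adjusted p = 0.000723 over all probe sets) and Mcm5 (-0.68, adjusted p = 3.7e-05) fell, and one of Mcm6 rose (1.33, adjusted p = 6.36e-13). Of the further probe sets of Tpx2, 1 fell (-1.90, adjusted p = 2.03e-09 over all probe sets). Another 2 were higher in severe eyes (0.70 and 0.33, adjusted p of 3.08e-06 and 0.0137). The levels of Cdk1 were 5.27, 5.54 and 6.0 in severe eyes, against 5.35, 6.93 and 8.35 in moderate eyes, and only moderate replicate 5 lay within the severe range. Without the arrays that stood apart 25 genes fell, and within the number range of the controls, with 3 severe and 2 moderate eyes, 3 fell.

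Of the other probe sets of these genes, 60 of 65 had the same sign as the probe set used for moderate against control, and none was called in the opposite direction. For severe against moderate the sign was the same for 41 of 65, and 6 were called in the opposite direction to a called gene. These 6 belonged to Tpx2, Cdca3, Kif23 and Rrm1. For severe against control ONH 45 of 65 had the same sign, and 1 was called opposite. In the retina 35 of 65 had the same sign for moderate against control, and none was called opposite. For severe against moderate retina 40 had the same sign and 2 were called opposite, and for severe against control 32 and 3.

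Against control, 6 of the 50 genes were higher in the severe ONH, 2 were lower and 42 did not pass, where 11.9% of all genes rose and 11.6% fell. The 6 were Cdca8 (1.14, SE 0.26), Cep55 (1.10, SE 0.37), Nusap1 (0.78, SE 0.30), Uhrf1 (0.73, SE 0.24), Cenpf (0.65, SE 0.17) and Mcm6 (0.50, SE 0.17). The share is close to that of all genes. Cep55 had levels of 4.83, 5.96 and 6.68 in severe and 3.45, 4.60 and 5.85 in control eyes, and its call was lost without control replicate 6 (0.95, adjusted p = 0.0628). The call of Nusap1 (adjusted p = 0.0474) was lost without any of 6 severe and 6 control arrays. With the mean of all its probe sets, Cdca8 was higher by only 0.25 (adjusted p = 0.152). Of the 65 further probe sets, 15 passed, 12 of them higher than in control. Some belonged to genes that did not pass at the probe set used. They include Tpx2 (0.71), Cdca3 (0.50) and Kif23 (0.48), with adjusted p of 6.54e-07, 3.83e-05 and 0.000269 over all probe sets. The means of these probe sets over the ONH arrays were log2 3.35, 2.90 and 3.02. Top2a differed from control by 0.49 (SE 0.28, adjusted p = 0.212), Mki67 by 0.36 (SE 0.25, adjusted p = 0.321), Cdk1 by 0.05 (SE 0.17, adjusted p = 0.889), Rrm2 by 0.58 (SE 0.32, adjusted p = 0.196) and Pcna by 0.13 (SE 0.10, adjusted p = 0.376). The 95% interval of the Cdk1 difference reached from -0.30 to 0.39.

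The severe ONH had 3 genes higher than no or early (Cdca8 by 0.81, Mcm5 by 0.45 and Cenpf by 0.43) and 5 lower, where 7.40% of all genes rose and 9.68% fell. Both shares were close to those of all genes. Mcm5 lost its call without severe replicate 1, 2, 3, 4, 6, 7 or 10 (adjusted p up to 0.0904). The lower ones were Spc25, Kif4, Ccnb2 (-0.42, SE 0.14), Melk (-0.40, SE 0.11) and Rrm1 (-0.27, SE 0.10).

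Spc25, a kinetochore subunit of the NDC80 complex, and Kif4, a motor that rides on chromosome arms, ran against the other genes. Over the retina arrays the mean log2 level of Spc25 was 10.99 and that of Kif4 3.44. Spc25 had levels of 8.92, 10.13 and 10.48 in control, 9.42, 9.92 and 10.24 in preglaucoma, 9.01, 9.46 and 9.98 in no or early 1, 8.97, 9.59 and 10.24 in no or early 2, 8.73, 9.04 and 9.85 in moderate and 6.36, 8.51 and 9.52 in severe ONH. No moderate eye was above the highest control eye, and severe eyes spread the most, with replicates 6 and 3 at 6.36 and 6.86. These 2 were among the arrays that stood apart and had the lowest mean levels of the photoreceptor markers, 3.99 and 8.42, against at least 8.90 on every other ONH array. Spc25 fell by 0.81 in moderate against control (SE 0.24, adjusted p = 0.0141) and by 1.61 in severe against control (SE 0.23, adjusted p = 3.6e-07). Leaving out all arrays that stood apart, the second difference was -1.25 (adjusted p = 1.97e-06), and severe no longer passed against moderate (-0.53, adjusted p = 0.125, against -0.80 and 0.0255 with all arrays). Kif4 had levels of 3.78, 4.08 and 4.57 in moderate and 4.03, 4.89 and 5.56 in control eyes. In severe eyes Kif4 was at 3.22, 3.54 and 3.82, with no overlap with the control eyes. It fell by 0.69 in moderate against control (SE 0.14, adjusted p = 0.000458) and by 1.27 in severe against control (SE 0.14, adjusted p = 3.09e-10). Beside this, the 8 markers of retinal ganglion cells had a mean log2 level of 7.93, 8.39 and 8.75 in control, 7.12, 7.56 and 8.41 in moderate and 5.57, 5.98 and 6.83 in severe ONH. Of these markers, 6 fell in moderate and 7 in severe ONH against control, and their part in the result was not tested. A second probe set of Spc25 was also lower in moderate than in control (-0.98, SE 0.23) and did not differ between severe and moderate at adjusted p = 0.86 over all probe sets (0.10, SE 0.23).

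No or early ONH was not called different from controls at any of the 50 genes in limma, which does not show that levels were equal. Of the 50, 16 had an unadjusted p under 0.05, and the median difference was 0.18. The share of all genes with such an unadjusted p is not given here. After adjustment 1.26% of all genes rose and 0.473% fell, 1.73% in all. With array weights 9 rose, with the replicate number as a block 6, with the groups compared alone 6 and within the number range of the controls 3. When moderate replicate 5 was left out, 6 rose. The sets no or early 2 and no or early 1 did not differ at any gene of the 18194, and 2 of the 50 genes had an unadjusted p under 0.05. Single eyes of no or early 2 were high all the same: Rrm2 spanned 7.22, 8.17 and 9.77 there and Tpx2 5.52, 6.58 and 8.19.

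Through the other ONH stages, Top2a had lowest, median and highest levels of 4.18, 4.86 and 5.46 in preglaucoma, 4.22, 4.99 and 5.48 in no or early 1, 3.95, 5.09 and 6.41 in no or early 2 and 3.85, 4.85 and 5.57 in severe eyes. These ranges overlapped each other and that of the controls. Mki67 had levels of 4.64, 5.48 and 6.10 in preglaucoma, 5.36, 5.61 and 6.11 in no or early 1, 4.75, 5.59 and 6.44 in no or early 2 and 4.77, 5.34 and 6.26 in severe eyes. Rrm2 had levels of 7.67, 8.60 and 8.90 in preglaucoma, 6.97, 8.08 and 8.88 in no or early 1 and 6.83, 8.08 and 8.69 in severe eyes, so that the medians of all 3 lay above that of the controls and below that of the moderate eyes. Cep55 had levels of 4.50, 5.58 and 6.58 in no or early 1 and 4.27, 6.13 and 7.32 in no or early 2. Pcna kept within 8.78 and 9.96 in these stages, and its highest median among them was 9.68, in no or early 2.

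The young preglaucoma ONH was compared with the older controls, so age and the Gpnmb genotype differ together. The arrays differed as well, with array medians of log2 4.88 to 4.94 in preglaucoma and 5.02 to 5.09 in control ONH. The mouse numbers of the preglaucoma eyes lay in ranges that no other group had. These differences cannot be told apart from age and genotype. In preglaucoma 7 genes were higher than in control, 3 lower and 40 did not pass, where 8.28% of all genes rose and 11% fell. Cep55 was higher by 1.67 (SE 0.37, adjusted p = 0.000688), at 5.31, 6.54 and 7.17 in preglaucoma and 3.45, 4.60 and 5.85 in control eyes. Cdca8 was higher by 1.54 (SE 0.26), Rrm2 by 0.97 (SE 0.32), Nusap1 by 0.81 (SE 0.30), Mcm3 by 0.67 (SE 0.20), Mcm5 by 0.67 (SE 0.19) and Cenpf by 0.63 (SE 0.17). Kif20a, a motor of the central spindle, fell by 0.80 (SE 0.13), Foxm1 by 0.32 (SE 0.11) and Ndc80 by 0.31 (SE 0.10). The call of Nusap1 was lost without control replicate 2, 4, 5, 6, 8 or 9 (adjusted p up to 0.0991), and that of Rrm2 without control replicate 2, 6 or 8 (up to 0.0525). Cdk1 differed by 0.12 (SE 0.17) and Top2a by 0.54 (SE 0.28), and neither passed. With the mean of all its probe sets Cdca8 was higher by 0.25 and no longer passed.

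Against preglaucoma, 9 genes were higher in no or early, 6 lower and 35 did not pass, where 17.3% of all genes rose and 11% fell. Both shares were close to those of all genes. Age, the range of mouse numbers and the array medians (4.98 to 5.16 in no or early) differ together here and cannot be told apart. The largest rises were those of Kif20a (0.67, SE 0.11), Kif23 (0.50, SE 0.17), Ccnb2 (0.46, SE 0.14), Foxm1 (0.46, SE 0.09), Melk (0.41, SE 0.11) and Kif2c (0.35, SE 0.08). The 6 lower genes were Cdca8 (-1.21, SE 0.23), Mcm5 (-0.69, SE 0.16), Mcm3 (-0.53, SE 0.17), Cenpf (-0.40, SE 0.14), Kif22 (-0.35, SE 0.10) and Mcm4 (-0.26, SE 0.09). With the mean of all probe sets the signs of Kif23 and Kif22 turned.

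In the retina few of the genes moved. In moderate retina 5 of the 50 were higher than in control, 1 was lower and 44 did not pass, where 5.41% of all genes rose and 4.73% fell. Rrm2 rose by 1.10 (SE 0.33, adjusted p = 0.0214), Birc5 by 0.74 (SE 0.21), Uhrf1 by 0.65 (SE 0.20), Bub1b by 0.55 (SE 0.13) and Cenpe by 0.46 (SE 0.11), and Ect2 fell by 0.67 (SE 0.13, adjusted p = 0.000517). Rrm2 had levels of 4.07, 5.00 and 7.99 in moderate and 3.17, 3.99 and 5.19 in control retina. The high value was that of replicate 2, which was also the highest moderate retina for Cep55 (6.92) and Cdk1 (5.72) and had 31 genes above the highest control, against a median of 7.5 in moderate retina. Without replicate 2 Rrm2 differed by 0.71 (adjusted p = 0.119) and Uhrf1 by 0.40 (adjusted p = 0.171), and 2 genes rose. Uhrf1 also lost its call without moderate replicate 9 or control replicate 3, 6, 8 or 9. Within the number range of the controls none rose or fell, and the same held with that range as a factor.

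Mki67 (0.31, SE 0.23, adjusted p = 0.473), Cdk1 (0.20, SE 0.15, adjusted p = 0.475), Cep55 (0.86, SE 0.32, adjusted p = 0.0781) and Pcna (0.10, SE 0.04, adjusted p = 0.105) did not pass in moderate retina against control. Mki67 had levels of 4.62, 5.10 and 6.44 in moderate and 4.53, 4.98 and 6.02 in control retina, and Cdk1 3.82, 4.26 and 5.72 in moderate and 3.78, 4.14 and 4.85 in control retina, so that the groups overlapped almost throughout. Cep55 spanned 3.41, 4.05 and 6.92 in moderate and 2.77, 3.36 and 4.05 in control retina. Top2a was read there from another probe set than in the ONH and differed by 0.20 (SE 0.30, adjusted p = 0.76). The probe set used for Top2a in the ONH, which has a lower mean in the retina, was higher by 0.97 (SE 0.17, adjusted p = 7.61e-05 over all probe sets). Moderate retina had 4 genes higher and 2 lower than no or early retina, where 5.30% of all genes rose and 4.14% fell, 9.44% in all. These were Birc5 (0.63, SE 0.19), Bub1b (0.52, SE 0.11), Cenpe (0.45, SE 0.10) and Mcm3 (0.31, SE 0.10), and Ect2 (-0.47, SE 0.12) and Spc25 (-0.27, SE 0.09).

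Severe retina had 3 genes higher and 10 lower than moderate retina, where 11.9% of all genes rose and 19% fell. The share that fell was close to that of all genes, and the share that rose was below that of all genes. Rrm2 fell by 1.14 (SE 0.32, adjusted p = 0.00677), Birc5 by 0.79 (SE 0.21), Uhrf1 by 0.53 (SE 0.20), Hmmr by 0.50 (SE 0.15), Cenpe by 0.44 (SE 0.11) and Kif23 by 0.34 (SE 0.10). Ect2 (0.58, SE 0.13), Cenpf (0.48, SE 0.10) and Spc25 (0.31, SE 0.10) rose. Uhrf1 lost its call without any of 9 single arrays, and without moderate replicate 2 it differed by -0.28 (adjusted p = 0.203). Without the arrays that stood apart 6 were lower, and within the number range of the controls none passed in either direction. Against control, Mcm3 (0.58, SE 0.11) and Cenpf (0.37, SE 0.09) were higher in severe retina, Tpx2 (-0.51, SE 0.14) and Kif23 (-0.31, SE 0.09) lower, and 46 did not pass, where 10.3% of all genes rose and 13.8% fell. The direction of Tpx2 turned with the mean of all its probe sets, to 0.15 (adjusted p = 0.0304). A further probe set of Kif23 was called in the opposite direction to the one used. It was higher in severe retina than in control (0.43, adjusted p = 0.000882 over all probe sets) and than in moderate retina (0.41, adjusted p = 0.00251). Against no or early, 3 genes were higher in severe retina and 9 lower, where 14.5% of all genes rose and 21.2% fell. Both shares were below those of all genes. Top2a (-0.67, SE 0.24) and Mki67 (-0.47, SE 0.19) were among the lower ones, and Mki67 lost its call without severe replicate 1, 2, 3, 4, 7, 8 or 9 (adjusted p up to 0.0884). No or early retina did not differ from control retina at any of the 50 genes in limma, and 1 had an unadjusted p under 0.05. Of all genes 0.0055% rose and 0.022% fell there, 0.0275% in all.

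Many of the differences between moderate and control eyes were larger in the ONH than in the retina. Moderate replicate 5, whose ONH had 5 of the 50 genes above all controls, had no retina analysed here, so this comparison rests on the other 8 moderate eyes. Without that eye Tpx2, for example, differed by 2.63 in the ONH alone, against 2.26 with it. In the 48 eyes with both arrays, the value of the ONH minus that of the retina was higher in moderate than in control eyes for 28 genes, lower for 1 (Kif4, -0.73, SE 0.18) and did not pass for 21, where 2.65% of all genes were higher and 3.03% lower, 5.68% in all. The median of the 50 genes was 0.76, against -0.01 over all genes. Tpx2 led with 2.80 (SE 0.33, adjusted p = 5.19e-08), followed by Pbk (2.64, SE 0.26), Prc1 (2.52, SE 0.24), Cep55 (2.46, SE 0.50), Nusap1 (2.43, SE 0.31) and Nuf2 (2.26, SE 0.24). Over the retina arrays the means of Pbk, Nuf2 and Cep55 were log2 3.24, 3.62 and 3.87, and those of Tpx2 and Nusap1 5.22 and 4.51. Low retina levels may lie near background, which was not tested. Top2a (1.54, SE 0.28), Rrm2 (1.52, SE 0.42), Mki67 (1.49, SE 0.34) and Cdk1 (1.32, SE 0.22) passed as well, and Pcna did not (0.25, SE 0.12, adjusted p = 0.24). Here Top2a was read in both tissues from the probe set used in the ONH. That probe set differed by 0.97 between moderate and control retina, against 0.20 at the one used for the retina alone. Ect2 was higher in moderate ONH and lower in moderate retina than in the controls of each tissue, and its difference between tissues was 2.01 (SE 0.29, adjusted p = 5.53e-06). Against no or early eyes, 25 genes had a larger difference in the ONH and none a smaller, where 0.907% and 1.03% of all genes did. Cep55 (2.00, SE 0.44), Cdk1 (1.21, SE 0.19), Mki67 (1.13, SE 0.29) and Top2a (0.99, SE 0.25) were among them, and Rrm2 did not pass (1.08, SE 0.37, adjusted p = 0.15). The count was 16 without the arrays that stood apart. With a level filter (log2 of at least 5 on 8 arrays), which tests fewer genes, 8 genes were higher against control and 6 against no or early.

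**Figure D5:**
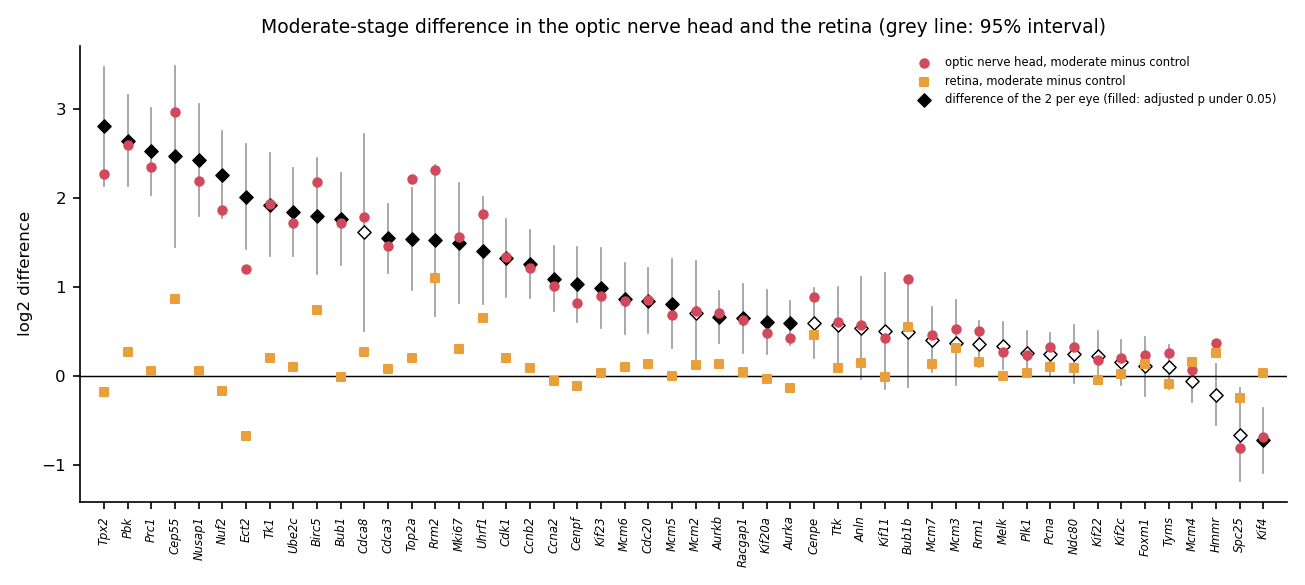
Log2 difference between moderate and D2-Gpnmb+ control eyes for the ONH, for the retina, and for the ONH minus the retina of the same eye, with 95% intervals. Against the probe set used in the ONH, another one was used in the retina for 6 genes and for the difference per eye for 3. Tpx2 has 2.26 in the ONH of 9 moderate eyes, -0.18 in the retina of 8 and 2.80 per eye, where moderate replicate 5 is left out because its retina was not analysed here.

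For severe against control, the per-eye difference was higher for 1 gene (Mcm6, 0.59, SE 0.19) and lower for 2, Spc25 (-1.69, SE 0.24) and Kif4 (-1.41, SE 0.17), where 5.65% and 7.19% of all genes passed in these directions. Neither Spc25 nor Kif4 passed in the retina for severe against control. A pair of mice gave a moderate and a severe eye. In the first, 40 of the 50 genes lay above all controls in the moderate ONH and 3 in the severe ONH, with Top2a at 7.11 and 3.85. In the second the counts were 28 and 16, with Top2a at 5.90 and 4.90. In the retinas of these mice the counts were 31 in the moderate and 4 in the severe eye of the first, and 8 and 5 in those of the second.

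Other genes of the cell cycle, listed apart from the 50, were counted in the same way, and 85 of 87 were measured. Of 40 other mitosis genes, 24 rose, 1 fell and 15 did not pass in the moderate ONH against control, and 21 rose and 1 fell against no or early. Cks2, a partner of Cdk1, was higher than in control by 1.76 (SE 0.23), the spindle proteins Ckap2 by 1.75 (SE 0.22) and Ckap2l by 1.52 (SE 0.24), and Aspm, a spindle pole protein, by 1.40 (SE 0.23). Cenpk, a kinetochore protein, was higher than in no or early by 1.27 (SE 0.19). Spag5, a spindle protein, fell by 0.75 against control (SE 0.19) and by 0.53 against no or early (SE 0.17). In severe against moderate ONH 18 of the 40 fell and none rose.

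Of 22 other replication genes, 8 rose and 1 fell in moderate against control, and 2 rose against no or early. The licensing inhibitor Gmnn was higher than in control by 0.67 (SE 0.15), the licensing factor Cdt1 by 0.65 (SE 0.17), and Gins1 and Gins2 of the replicative helicase by 0.57 (SE 0.19) and 0.52 (SE 0.12). The 2 that rose against no or early were Gmnn (0.53, SE 0.13) and Gins2 (0.47, SE 0.10), and both had the opposite sign within the number range of the controls (-0.22 and -0.17). Of 16 genes of G1 cyclins, their kinases, E2F factors and Rb proteins, 6 rose against control: Myc (1.20, SE 0.28), Cdk6 (0.82, SE 0.15), Ccnd1 (0.69, SE 0.17), E2f1 (0.67, SE 0.20), Rbl1 (0.53, SE 0.13) and Cdk4 (0.34, SE 0.09). Only Myc passed against no or early (0.80, SE 0.24, adjusted p = 0.0353).

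Of the 7 inhibitors of cyclin-dependent kinases, 3 rose and 1 fell in moderate against control. Cdkn1a (p21) was higher by 1.12 (SE 0.22, adjusted p = 0.000215), Cdkn2b (p15) by 0.69 (SE 0.23, adjusted p = 0.0294) and Cdkn2c (p18) by 0.64 (SE 0.14, adjusted p = 0.00103), and Cdkn1c (p57) fell by 0.64 (SE 0.15, adjusted p = 0.00137). Cdkn1b (-0.09, SE 0.17), Cdkn2a (0.14, SE 0.11) and Cdkn2d (0.10, SE 0.11) did not pass. Against no or early, Cdkn2c alone passed (0.51, SE 0.12). None of the 7 passed in severe against moderate ONH.

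Markers of other cell types that the punch could hold were set beside these counts. Of 13 measured markers of microglia and macrophages, 6 rose in moderate and 7 in no or early ONH against control, and none passed for moderate against no or early or for severe against moderate. Their mean log2 level was 6.83, 7.49 and 7.92 in control ONH, 7.42, 7.98 and 8.30 in preglaucoma, 7.66, 7.95 and 8.31 in no or early 1, 7.32, 8.04 and 8.41 in no or early 2, 7.18, 7.97 and 8.45 in moderate and 7.65, 8.03 and 8.34 in severe ONH. The groups other than control overlapped throughout. Of 8 markers of monocytes and granulocytes, 5 rose in moderate and 4 in no or early against control and none for moderate against no or early. Of 9 lymphocyte markers, 1 rose in moderate against control. Of 9 astrocyte markers, 2 rose and 4 fell against control and 2 fell against no or early. Of 6 markers of oligodendrocyte precursors, 1 fell against control, as did 1 of 5 of oligodendrocytes and 1 of 7 of endothelial cells, and 2 of 7 of pericytes and fibroblasts rose. Of 7 Müller glia markers, 1 rose and 4 fell against control and 2 fell against no or early, and none of 7 photoreceptor markers passed. Of 6 markers of bipolar and amacrine cells, 3 fell against control and none passed against no or early. Their mean log2 level was 7.44, 8.41 and 8.98 in moderate and 8.16, 8.89 and 9.34 in control ONH. It lay below every control in moderate replicates 7 to 10 (7.83, 7.68, 7.75 and 7.44), which had 37 to 46 of the 50 genes above all controls. In moderate replicate 2, with 40 such genes, it was 8.41 and within the control range. The mean of the ganglion cell markers lay below every control (at least 7.93) in moderate replicates 2, 3 and 7 to 10. It was 7.48, 7.48, 7.74, 7.56, 7.40 and 7.12 there. The mean of the monocyte and granulocyte markers was highest in moderate replicates 9, 10 and 2 (7.10, 6.96 and 6.88). Among moderate eyes it was lowest in replicate 5 (5.25), which had 5 such genes. All 6 melanocyte markers fell in moderate against control, and none passed against no or early. In the retina, 10 of 13 microglia and macrophage markers rose in moderate against control, where 5 of the 50 mitosis and replication genes did, and 6 fell in severe against moderate. Their mean log2 level was 4.86, 5.28 and 6.67 in moderate and 4.49, 4.61 and 4.70 in control retina, with no overlap. The part of these markers in the results was not tested.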

How the data were processed

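RNA from the ONH and the retina was amplified with NuGEN kits and hybridised to Affymetrix Mouse Genome 430 2.0 arrays, per the labels' protocols. The deposited values are log2 RMA expression values, with GCOS, RMA and affy named without versions in the submitters' processing notes. Whether the tissues were normalised together is not stated in the sources used here. The values were used as deposited, and how many arrays a group has is a limit on precision. Of 45101 probe sets, 34958 were annotated to 1 gene, 932 to several and 9211 to none, and genes with several probe sets were read from the one with the highest mean in the tissue, which gave 18194 genes. Levels of different probe sets are not compared with each other.

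Differences were tested with limma 3.58.1 in R 4.3.3 (lmFit, eBayes), with all groups of a tissue in 1 fit, no filter on level, the mouse number as a random block (consensus correlation 0.0646 in the ONH and 0.0127 in the retina) and Benjamini-Hochberg adjustment over the 18194 genes at 0.05. Tissues were compared through the ONH minus retina difference of 48 eyes. Named are Top2a, Mki67, Cdk1, Cep55, Rrm2 and Pcna, the 2 genes of each role with the largest difference between moderate and no or early ONH, and in each comparison at most 6 called genes in each direction. Of the other lists, at most 4 called genes and all inhibitors of cyclin-dependent kinases are named. Genes that did not pass, or that ran against the rest of a role, were named after their values were seen. The genes and lists were chosen with earlier results of these data known. Alternatives were array weights, the mean of all probe sets, no mouse block, a level filter (log2 of at least 5 on 8 arrays), quantile normalisation, the groups compared alone, the mouse number range, a replicate block and arrays left out, and, added after seeing the data, a robust prior and the arrays that stood apart left out.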

Additional observations from a re-analysis of the deposited data

Results flagged for a closer look

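For the 6 genes followed throughout (Top2a, Mki67, Cdk1, Cep55, Rrm2 and Pcna), Dixon's criterion was applied to each gene in each group with at most 10 arrays, 60 in all, and 13 had an array far from the others of its group. Chance flags about 1 in 20 groups, and the arrays and genes are not independent. In the moderate ONH, replicate 5 was far below the others for Top2a (4.13) and Rrm2 (7.18), and replicate 8 for Pcna (9.02). In the severe ONH, replicate 5 was low for Cep55 (4.83), replicate 1 low for Rrm2 (6.83) and replicate 2 high for Pcna (9.96). In preglaucoma, replicate 3 was low for Cep55 (5.31). In moderate retina, replicate 2 was high for Cdk1 (5.72), Cep55 (6.92) and Rrm2 (7.99). In severe retina, replicate 10 was high for Rrm2 (5.16), and in control retina replicate 4 was high for Mki67 (6.02) and Cdk1 (4.85).

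The difference between moderate and control eyes was larger in the ONH than in the retina in a limma test of the per-eye difference for Top2a (1.54), Mki67 (1.49), Cdk1 (1.32), Cep55 (2.46) and Rrm2 (1.52). The same test for moderate against no or early eyes gave 0.99 for Top2a, 1.13 for Mki67, 1.21 for Cdk1 and 2.00 for Cep55.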

How the results depend on the processing

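Direction and call were kept by most genes under most settings, and the limits are the small moderate group, its spread, and the overlap of control genotype with a range of mouse numbers. Counts below are numbers of the 50 genes and are given where they moved by more than 1.5 times. With array weights, 9 were higher in no or early ONH against control, 11 in preglaucoma against control, 5 higher and 5 lower in severe retina against control, 2 lower in moderate retina against control, 2 higher and 1 lower in moderate against no or early retina, 5 higher in severe against no or early retina, and between tissues 2 lower for moderate and 3 higher for severe against control. With the mean of all probe sets, 11 were higher in preglaucoma against control, 2 lower in moderate against no or early ONH, 5 higher in no or early against preglaucoma, 4 higher and 1 lower in severe retina against control, 1 lower in moderate and 5 higher in severe against no or early retina, and 2 lower between tissues for moderate against control. Without the mouse block, 1 was higher in no or early ONH against control. With the level filter, which 30 of the 50 genes passed in the ONH, 20 in the retina and 17 between tissues, ONH counts were 1 lower in moderate and 1 lower in severe against control, 1 higher in no or early against control, 4 higher and 1 lower in preglaucoma against control, 0 lower in moderate against no or early, 1 higher and 1 lower in severe against no or early, 19 lower in severe against moderate and 3 higher in no or early against preglaucoma. The filter gave in the retina 3 higher in moderate against control, 1 higher and 1 lower in severe against control, 5 lower in severe against no or early and 6 lower in severe against moderate. Between tissues it gave 8 higher and 0 lower for moderate against control, 0 higher and 1 lower for severe against control, 6 higher for moderate and 0 higher and 1 lower for severe against no or early. The filter tests fewer genes.

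Within the number range of the controls, which leaves 2 moderate ONH arrays, ONH counts were 11 higher and 0 lower in moderate against control, 3 higher in severe and 3 higher in no or early against control, 0 in either direction in moderate against no or early, 0 higher and 1 lower in severe against no or early and 3 lower in severe against moderate. In the retina it gave 0 in either direction in moderate against control, moderate against no or early and severe against moderate, and 1 higher and 1 lower in severe against no or early. Signs turned there for Ndc80 (-0.052), Kif23 (-0.027) and Gins2 (-0.0094) in moderate against control, for Uhrf1 (-0.13), Plk1 (-0.24), Gins2 (-0.17), Gmnn (-0.22), Zwilch (-0.28), Pttg1 (-0.088) and Aspm (-0.32) in moderate against no or early, for Ndc80 (0.010) and Kif23 (0.16) in severe against moderate, and in the retina for Spc25 (0.066) in moderate against no or early and Ect2 (-0.12) in severe against moderate. The cause was not tested. With the range as a factor, 1 was lower in moderate ONH against control and 0 against no or early, 0 passed in moderate retina against control, and in the retina 1 was lower in severe against control, 1 in moderate and 5 in severe against no or early. With the mean of all probe sets the sign turned for Kif22 (0.20) and Kif23 (-0.12) in no or early against preglaucoma and, in the retina, for Tpx2 in severe against control (0.15) and against no or early (0.11) and Racgap1 in severe against no or early (0.0035).

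With only the groups compared in the fit, 6 were higher in no or early ONH against control, 14 higher and 5 lower in preglaucoma against control, 2 lower in moderate against no or early, in the retina 1 higher in moderate and 5 lower in severe against control and 2 higher and 1 lower in moderate against no or early, and between tissues 2 lower for moderate and 5 higher for severe against control and 0 higher for severe against no or early. Without the arrays that stood apart, 1 was higher in no or early ONH against control, 0 lower in moderate and 3 lower in severe against no or early, in the retina 2 higher in moderate against control, 2 higher and 1 lower in moderate and 5 higher in severe against no or early and 6 lower in severe against moderate, and between tissues 2 lower for moderate against control, 16 higher for moderate and 0 higher for severe against no or early.

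With 1 moderate, severe or control array left out at a time, the counts in moderate ONH against control ranged from 34 to 42 higher and stayed at 2 lower, in severe against control 4 to 8 higher and 2 lower, in no or early against control 0 to 6 higher (6 without moderate replicate 5, 1 without moderate replicate 8, 9 or 10 or control replicate 7 or 10), and in preglaucoma against control 5 to 8 higher and 2 to 4 lower. They were 29 to 39 higher and 0 to 1 lower in moderate against no or early, 1 to 3 higher (1 without severe replicate 7) and 3 to 6 lower (3 without severe replicate 8) in severe against no or early, 0 higher and 30 to 33 lower in severe against moderate, and 9 higher and 6 to 7 lower in no or early against preglaucoma. In the retina they were 2 to 6 higher (2 without moderate replicate 2) and 1 to 2 lower in moderate against control, 2 to 3 higher and 2 lower in severe against control, 2 to 6 higher and 0 to 2 lower in moderate against no or early, 3 to 5 higher and 6 to 11 lower in severe against no or early and 2 to 4 higher and 7 to 14 lower in severe against moderate.

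Replicate numbers are shared by the groups but do not pair the eyes: deviations of the same number correlated at a median of 0.09 over 145 pairs in the ONH (lowest -0.50) and 0.00056 over 92 pairs in the retina (lowest -0.52). With the replicate block, 39 genes rose in moderate ONH against control, 36 against no or early, 31 fell in severe against moderate, and 6 rose in no or early against control.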
